A study of Mus musculus with 6 samples.

Results

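The iron handling genes described here were 10 genes of mouse hepatocytes, taken by symbol from the 34745 genes counted in every library: Hamp, Hamp2, Trf, Tfrc, Tfr2, Fth1, Ftl1, Hfe, Slc40a1 and Cp. All 10 were found, each as 1 gene identifier, and all 10 passed the filter on low counts that left 14417 genes to test. RNA-seq was performed on primary hepatocytes of male mice aged 12 weeks, with 3 libraries of FOXA2f/f+CCl4 mice and 3 of FOXA2H-KO+CCl4 mice, both labelled replicates 1, 2 and 4. All mice carried Foxa2 alleles flanked by loxP sites. The FOXA2H-KO mice had received an adeno-associated virus, AAV8, that expressed Cre recombinase from the TBG promoter, which is active in hepatocytes, and the FOXA2f/f mice a control virus. The virus was given 2 weeks before carbon tetrachloride (CCl4), a hepatotoxin that causes fibrosis, and CCl4 was injected 2 times a week for 4 weeks at 0.25 ml/kg in both groups. No mice without CCl4 were among the samples, so every value below comes from injured liver. Nothing in the labels says whether replicates were separate animals, and p-values measure the spread between these libraries.

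The liver stores iron and sets its level in the whole body. Iron circulates bound to transferrin (Trf) and enters cells through the transferrin receptor (Tfrc). It is stored inside ferritin, a shell of heavy (Fth1) and light (Ftl1) chains, and leaves through ferroportin (Slc40a1), after which the copper oxidase ceruloplasmin (Cp) loads it onto transferrin. Hepatocytes sense iron through Hfe and the second transferrin receptor (Tfr2), and answer with hepcidin (Hamp), a hormone that blocks ferroportin. Hamp2 is a neighbouring copy of Hamp. Hamp transcription is driven by bone morphogenetic protein (BMP) signals through SMAD factors and, in inflammation, by interleukin-6 through STAT3.

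Part of this control lies in the sequence of the transcripts. Iron regulatory proteins bind a short hairpin, the iron-responsive element, when the cell is short of iron. Bound in the 5′UTR it blocks translation, and bound in the 3′UTR it protects the mRNA from decay, so that of the genes here the Tfrc transcript level is the one known to follow the element directly. The GENCODE M21 transcripts (GRCm38) were searched for a loop of CAGTG and then A, C or T, on 5 paired bases with an unpaired C before them. With at least 3 of 5 further pairs required below, it was found in the UTRs of 4 of the 10 genes. By the same search 0.137% of 21901 protein-coding genes held one. The 7 hairpins are shown because they separate the storage and export genes from the uptake gene, with the loop in capitals.
Tfrc 3′UTR element 1, chr16:32631219-32631248, + strand: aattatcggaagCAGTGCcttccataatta
Tfrc 3′UTR element 2, chr16:32631598-32631627, + strand: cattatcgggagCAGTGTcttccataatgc
Tfrc 3′UTR element 3, chr16:32631663-32631692, + strand: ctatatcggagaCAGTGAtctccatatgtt
Tfrc 3′UTR element 4, chr16:32631710-32631739, + strand: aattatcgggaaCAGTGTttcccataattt
Fth1 5′UTR element, chr19:9982732-9982761, + strand: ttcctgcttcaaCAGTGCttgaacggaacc
Ftl1 5′UTR element, chr7:45459778-45459807, − strand: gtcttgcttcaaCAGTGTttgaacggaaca
Slc40a1 5′UTR element, chr1:45925464-45925493, − strand: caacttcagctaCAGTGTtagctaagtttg

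The libraries held 20983455 to 28327765 counted reads. Foxa2, the targeted gene, had 442, 246 and 516 counts in the FOXA2f/f libraries and 28, 19 and 35 in the FOXA2H-KO libraries, so every library matched its label. The fitted difference was −3.85 ± 0.31 on the log2 scale (SE, n = 3 per group, edgeR quasi-likelihood adjusted p = 0.0313). Albumin ranged from 83490 to 124578 CPM (counts scaled to a common library total, here with TMM library factors) in the 6 libraries, and the 7 hepatocyte markers summed to between 101733 and 149316 CPM. Markers of other liver cells were also present. The summed CPM ran from 543 to 2461 for 10 macrophage markers, from 273 to 981 for 10 endothelial markers, from 908 to 2476 for 10 stellate cell markers, from 188 to 719 for 7 cholangiocyte markers, from 10.9 to 114 for 8 neutrophil markers, from 30.3 to 88.1 for 9 erythroid markers and from 1.26 to 6.55 for 8 lymphocyte markers. None of these markers was at 0 in all 6 libraries. FOXA2f/f replicate 2 had the lowest sum in each of these lists but the erythroid list, where it had the highest, and it also had the highest hepatocyte sum. Of its erythroid sum of 88.1 CPM, 82.0 CPM was Alas2, a gene of heme synthesis, while the globin genes of the list were lower there than in the other FOXA2f/f libraries. In such bulk samples, fewer cells of a type and less RNA per cell cannot be told apart.

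None of the 10 iron handling genes passed the thresholds for a difference between the groups, an adjusted p below 0.05 with a fold of at least 2. That call was made for 0.00694% of the 14417 genes, which is 1 gene, Foxa2. The count among the iron handling genes was 0 with the edgeR quasi-likelihood test. It was also 0 with DESeq2, which called 73 genes or 0.457% of those it gave an adjusted p, and with the edgeR exact test, which called 64 genes or 0.444%. An unadjusted p below 0.05 was reached by 2 of the 10 genes, Tfr2 and Tfrc, beside 5.17% of all genes tested. DESeq2 and the exact test also gave 2 of the 10, beside 4.04% and 5.31% of all genes. The quasi-likelihood p-values of the 10 genes, adjusted over all genes tested, lay between 0.732 and 0.997. In 2 genes, Tfr2 and Trf, every FOXA2H-KO library was below every FOXA2f/f library, a pattern found in 5.96% of all genes tested. In 0 of the 10 genes was every FOXA2H-KO library above, which held for 4.54% of all genes. The fitted log2 fold change was below 0 for 9 genes and above 0 for Slc40a1, beside 7525 below and 6892 above over all genes tested. The split was 7 below and 3 above when libraries were scaled by their totals alone. It was 6 below and 4 above in the limma fits of log2(FPKM + 1) and log2(FPKM + 0.1). The median log2 fold change was −0.40, beside −0.012 over all genes tested. It was −0.08 without FOXA2f/f replicate 1, −0.22 with scaling by totals alone, and −0.10 in the limma fit of log2(FPKM + 1). The last 2 of these settings also moved the median of all genes, to 0.104 and 0.083.

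**Figure D1:**
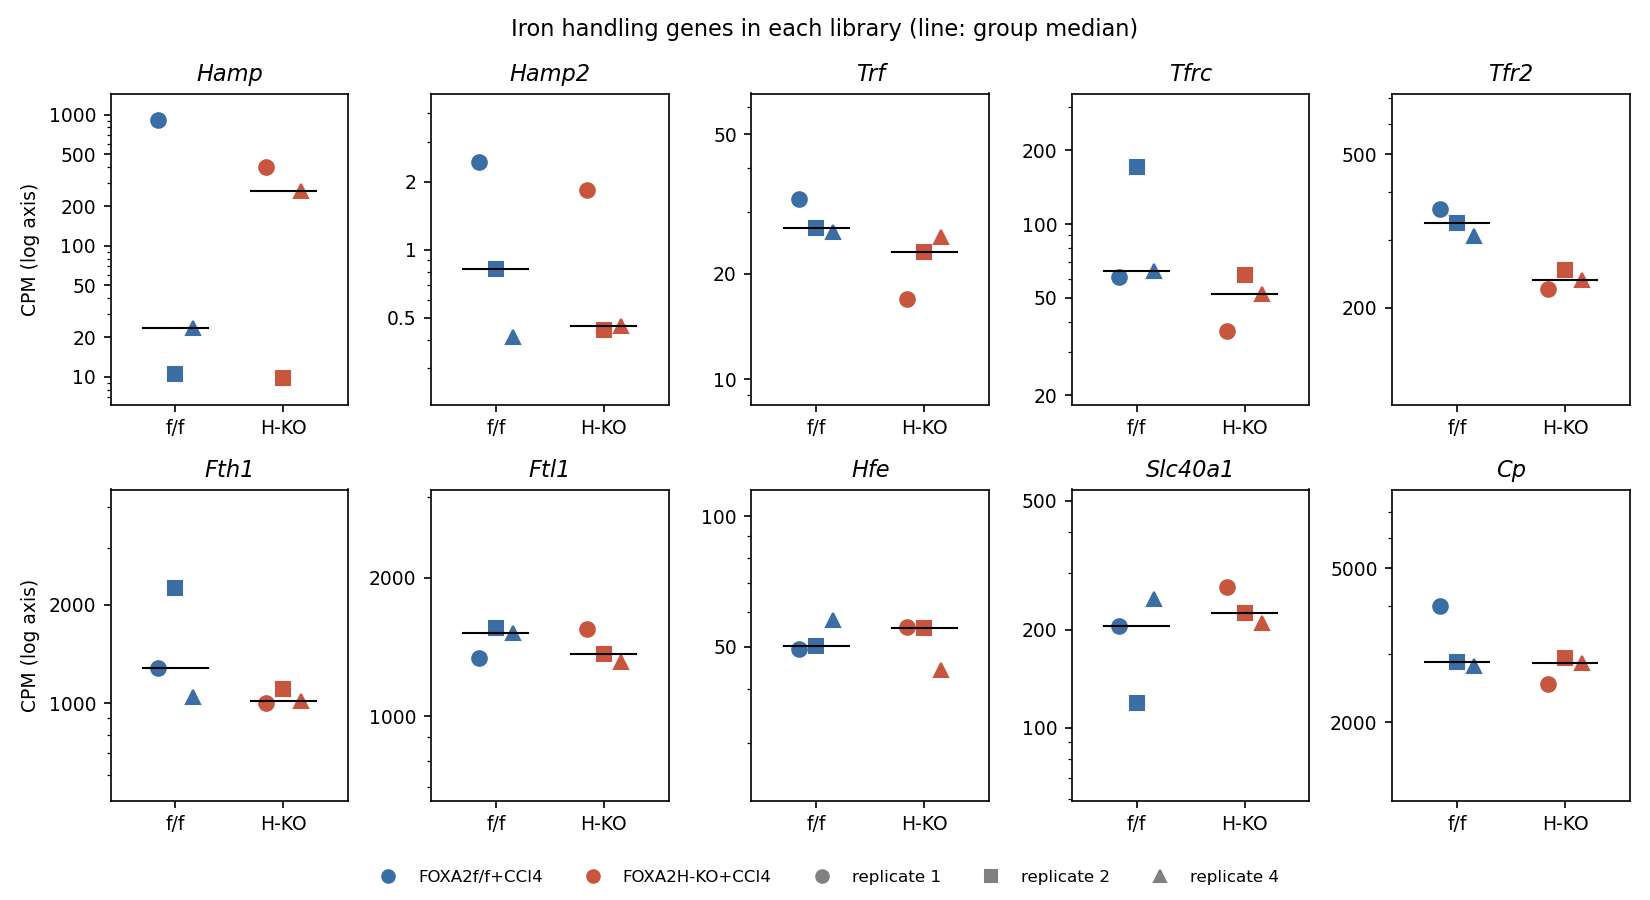
CPM of the 10 iron handling genes (y axis, log scale, a separate scale in each panel) in 3 FOXA2f/f+CCl4 libraries (blue) and 3 FOXA2H-KO+CCl4 libraries (red), with the replicate number as the symbol and the group median as a line. Only Trf and Tfr2 have no overlap between the groups, and Hamp spans 9.82 to 908 CPM.

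Hamp, the hepcidin gene, differed far more among the libraries of a group than between the groups. It stood at 908, 10.6 and 23.6 CPM in FOXA2f/f replicates 1, 2 and 4, and at 402, 9.82 and 262 CPM in FOXA2H-KO replicates 1, 2 and 4. Each group thus had a library near 10 CPM and at least 1 library above 250, and the groups overlapped over nearly the whole range. These levels rest on 21150, 194 and 742 counts and on 10918, 245 and 5672 counts, so that the low libraries were well above the counting limit. The highest library was 85.4 times the lowest in the FOXA2f/f group and 40.9 times the lowest in the FOXA2H-KO group. Among 8295 genes with a mean of at least 10 CPM, Hamp ranked 1 by the spread within groups, with an SD of 3.18 on the log2 scale against a median of 0.205 over those genes. The mean level was 314 ± 515 CPM in FOXA2f/f and 225 ± 199 CPM in FOXA2H-KO (SD, n = 3 each), and the fitted log2 difference of −0.48 ± 1.63 (SE) was smaller than its error (edgeR adjusted p = 0.993, two-sided exact permutation p = 0.8, where 0.1 is the smallest that 3 against 3 allows). It became 3.72 without FOXA2f/f replicate 1 and −1.21 without FOXA2H-KO replicate 1. With this spread the libraries do not give the direction of a difference in Hamp.

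Hamp2, the hepcidin copy, was counted at a small part of the Hamp level. It had 57, 15 and 13 counts in the FOXA2f/f libraries and 50, 11 and 10 counts in the FOXA2H-KO libraries, which is 2.45, 0.822 and 0.413 CPM against 1.84, 0.441 and 0.462 CPM. Replicate 1 was the highest of its group in both groups, as it was for Hamp, whereas FOXA2H-KO replicate 4, high in Hamp, was low in Hamp2. The fitted log2 difference was −0.40 ± 0.79 (SE, edgeR adjusted p = 0.991). Per length, Hamp exceeded Hamp2 by 24.7 to 1085 times across the 6 libraries, as the ratio of their FPKM (fragments scaled to gene length and library total). The transcripts of both genes were identical at 88.8% of aligned positions, and 15.5% of the 50-base words of Hamp2 were also in Hamp, so reads of the abundant gene could be counted for the scarce one. How much of the Hamp2 count this makes was not tested.

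Hamp and Hamp2 lie in tandem on the − strand of chromosome 7, at 30942368 to 30944032 and 30922372 to 30924681 (GRCm38). The 250 bases before their start sites were 89.7% identical in the RefSeq promoter sequences (GRCm38.p6). The stretch from 160 to 41 bases before each RefSeq start is shown because the motifs searched for in Hamp control fall in it. For Hamp2 this stretch lies inside the gene span given above, which is that of GENCODE M21, with 0 of its bases in an exon of the gene. Capitals mark GGCGCC, a BMP response element, and TTCNNNGAA, a STAT motif.
Hamp, chr7:30944070-30944189, − strand: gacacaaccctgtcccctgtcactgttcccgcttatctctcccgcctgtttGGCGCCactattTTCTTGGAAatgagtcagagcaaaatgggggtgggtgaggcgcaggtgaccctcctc
Hamp2, chr7:30924222-30924341, − strand: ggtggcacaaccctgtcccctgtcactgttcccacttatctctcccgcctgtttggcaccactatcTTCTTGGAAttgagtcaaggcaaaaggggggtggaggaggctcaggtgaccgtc
GGCGCC was at −109 to −104 in Hamp and was not found in the Hamp2 window, while TTCNNNGAA was at −97 to −89 in Hamp and at −94 to −86 in Hamp2. Over both strands, 11.9% of 32851 promoters of this length held GGCGCC and 8.3% held TTCNNNGAA. Of the 8 iron handling genes with a promoter sequence, Tfrc also held GGCGCC, at −89 to −84 of its first listed start site. The forkhead motifs TGTTTAC and TATTTAC, present in 3.65% and 3.04% of promoters, were in none of the windows of these 8 genes. Trf and Slc40a1 were not among the promoter sequences used. A match is a run of letters and not a measured binding site.

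A list of hepcidin regulation genes, which holds both controllers and targets of the same signals, had smaller ranges than Hamp. Because Hamp ranked 1 of 8295 genes by its spread within groups, a smaller range says little about the role of these genes. Of 22 genes in this list, 21 passed the filter, and Erfe, the erythroid signal that lowers hepcidin, did not. Between their highest and lowest library the 21 genes differed by 1.14 to 10.2 times, with a median of 1.66, against 92.5 times for Hamp. The 3 libraries highest in Hamp were FOXA2f/f replicate 1 and FOXA2H-KO replicates 1 and 4. Among the 19 regulation genes with a mean of at least 10 CPM, Id1 alone had the same 3 libraries on top, as had 2.82% of the 8295 genes at that level. Id1, a target of BMP and SMAD signalling, was at 45.0, 15.1 and 15.3 CPM in the FOXA2f/f libraries and at 22.4, 14.6 and 23.4 CPM in the FOXA2H-KO libraries. Atoh8, another target, was at 19.6, 6.25 and 9.47 CPM in FOXA2f/f and at 13.9, 7.78 and 9.16 CPM in FOXA2H-KO. It was highest in the replicate 1 libraries, but FOXA2H-KO replicate 4, high in Hamp, lay below FOXA2f/f replicate 4. Both names were chosen after their values were seen.

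Of the same list, 11 genes had a log2 fold change above 0 and 10 below (14 and 7 with libraries scaled by their totals), with a median of 0.03 and with 0 genes at an unadjusted p below 0.05. The lowest values were −0.82 for Socs3, the STAT3-induced inhibitor of cytokine signalling, and −0.39 for Smad7, an inhibitory SMAD. The highest were 0.43 for Il6ra, the interleukin-6 receptor, and 0.25 for Neo1, a co-receptor of hemojuvelin. Socs3 stood at 30.2, 2.96 and 19.5 CPM against 8.28, 9.34 and 12.3 CPM, with the FOXA2f/f libraries both above and below the FOXA2H-KO libraries. Tmprss6, the protease that restrains hepcidin, was the only gene of the list whose groups did not overlap. Every FOXA2H-KO library was below, as in 5.96% of all genes tested. Tmprss6 stood at 336, 466 and 303 CPM against 298, 295 and 282 CPM (edgeR adjusted p = 0.961). Its log2 difference of −0.33 was −0.13 without FOXA2f/f replicate 2. Tmprss6 too was named after its values were seen.

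**Figure D2:**
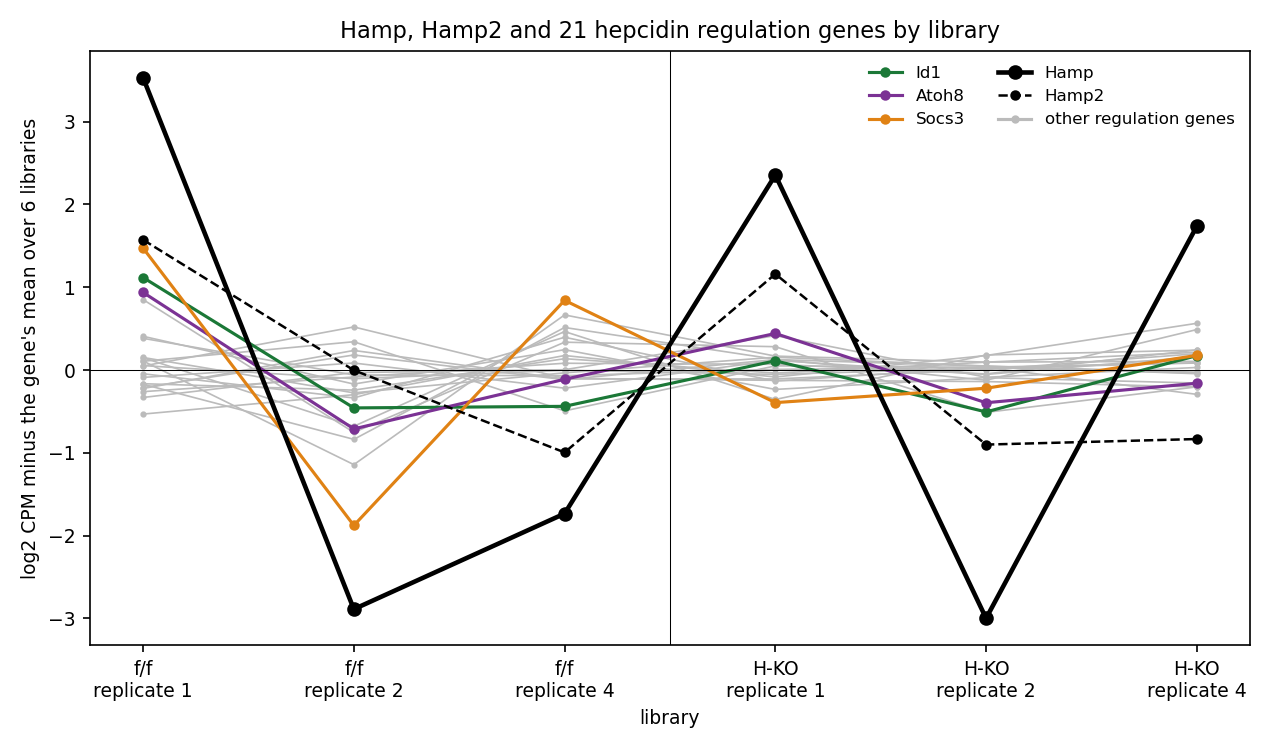
Log2 CPM minus the mean of each gene over the 6 libraries (y axis) by library (x axis) for Hamp, Hamp2 and the 21 hepcidin regulation genes tested. Lines only join the values of a gene. Hamp is high in FOXA2f/f replicate 1 and FOXA2H-KO replicates 1 and 4, and the regulation genes stay within 10.2-fold.

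Among the genes nearest to Hamp across the 6 libraries, of 8286 compared, were Saa2, an acute-phase protein, and Spp1, osteopontin. Their root mean square differences from the centred log2 CPM of Hamp were 1.87 and 2.07, against 2.62 for Hamp about its own mean, so neither followed it closely. Saa2 stood at 118, 14.6 and 37.3 CPM in FOXA2f/f and at 33.9, 20.3 and 53.3 CPM in FOXA2H-KO. Like Hamp it was highest in FOXA2f/f replicate 1 and lowest in the replicate 2 libraries, whereas FOXA2H-KO replicate 1, next in Hamp, came behind FOXA2f/f replicate 4 in Saa2.

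Tfr2, the transferrin receptor that senses iron in hepatocytes, had the smallest p of the 10 genes. It was at 359.9, 331 and 307 CPM in the FOXA2f/f libraries and at 224, 249.9 and 236 CPM in the FOXA2H-KO libraries. Every FOXA2H-KO library was below every FOXA2f/f library, and the libraries of a group lay close together, with the highest 1.17 and 1.11 times the lowest. The means were 333 ± 26.3 and 237 ± 12.8 CPM (SD, n = 3 each), and the fitted FOXA2H-KO level was 0.711 times the FOXA2f/f level (log2 difference −0.49 ± 0.14, SE). The edgeR p of 0.00931 became 0.732 after adjustment over all genes, and the exact permutation p was 0.1, the smallest possible. In the 6 fits that each lacked 1 library the difference stayed between −0.55 and −0.42. Across all alternatives its adjusted p lay between 0.109, given by DESeq2, and 1. By its spread within groups Tfr2 ranked 7502 of 8295 genes, near the steady end.

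Hfe, the membrane protein that works with the transferrin receptors in iron sensing, stood at 49.3, 50.2 and 57.7 CPM in FOXA2f/f and at 55.4, 55.3 and 44.1 CPM in FOXA2H-KO. The groups overlapped, with the highest value in a FOXA2f/f library and the lowest in a FOXA2H-KO library. Its log2 difference was −0.02 ± 0.14 (SE, edgeR adjusted p = 0.997), and its sign turned with the scaling.

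Tfrc, the receptor that takes up transferrin, had the largest fitted difference of the 10 genes, and that difference rested on 1 library. It was at 60.7, 170.5 and 64.3 CPM in the FOXA2f/f libraries and at 36.7, 62.2 and 51.7 CPM in the FOXA2H-KO libraries. FOXA2f/f replicate 2 stood far above the other libraries, FOXA2f/f replicate 1 lay within the FOXA2H-KO range, and FOXA2f/f replicate 4 lay just above it. The fitted FOXA2H-KO level was 0.51 times the FOXA2f/f level (log2 difference −0.97 ± 0.41, SE, edgeR p = 0.0482, adjusted p = 0.941, exact permutation p = 0.2). Without FOXA2f/f replicate 2 the difference was −0.31. That was also the library with the lowest summed macrophage, endothelial, stellate and neutrophil markers, at 543, 273, 908 and 10.9 CPM, and with the highest summed hepatocyte and erythroid markers, at 149316 and 88.1 CPM. Of its erythroid sum, 82.0 CPM was Alas2. The globin genes Hba-a1, Hba-a2, Hbb-bs and Hbb-bt were lower there than in the other FOXA2f/f libraries, at 1.32, 0.713, 1.48 and 0.548 CPM. The part of these marker lists in the Tfrc level was not tested. The genes whose levels followed Tfrc most closely were Ttc23, G6pc, the glucose-6-phosphatase of gluconeogenesis, and Serpina12, with root mean square differences of 0.18, 0.18 and 0.19 against 0.68 for Tfrc about its own mean. G6pc, for example, was at 326, 1089 and 438 CPM in FOXA2f/f and at 178, 366 and 262 CPM in FOXA2H-KO. That FOXA2f/f replicate 2 was on top follows from choosing these genes by their likeness to Tfrc. Per length, Tfr2 exceeded Tfrc by 2.12 times in that library and by 4.39 to 6.68 times in the other 5.

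Trf, which encodes the iron carrier transferrin, was at 32.7, 27.0 and 26.3 CPM in FOXA2f/f and at 16.9, 23.1 and 25.5 CPM in FOXA2H-KO. Every FOXA2H-KO library was below every FOXA2f/f library, but FOXA2H-KO replicate 4 missed the lowest FOXA2f/f library by less than 1 CPM. In FPKM, which the authors scaled without TMM factors, the groups overlapped, at 5.92, 4.67 and 5.80 against 3.78, 4.67 and 5.03. The log2 difference was −0.39 ± 0.18 (SE, edgeR p = 0.0656, adjusted p = 0.941, exact permutation p = 0.1). It was between −0.51 and −0.24 in the 6 fits that each lacked 1 library. The level of Trf is uncertain, because 63.5% of its exonic bases overlap Gm20425 on the same strand in GENCODE M21, 79.8% of the 50-base words of its transcript are also in Gm20425, and Gm20425 had 0 counts in all 6 libraries. Only reads from the rest of Trf can be told from Gm20425, and whether reads that fit both genes were left out of the counts was not tested.

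Cp, which oxidises exported iron, was at 3993, 2869 and 2789 CPM in FOXA2f/f and at 2508, 2926 and 2840 CPM in FOXA2H-KO. Only FOXA2f/f replicate 1 stood above the other group. The log2 difference of −0.22 ± 0.24 (SE, edgeR adjusted p = 0.983) came to −0.02 without that library.

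Fth1, the ferritin heavy chain that oxidises iron for storage, repeated the pattern of Tfrc at a higher level. It was at 1284, 2261 and 1046 CPM in the FOXA2f/f libraries and at 1003, 1101 and 1017 CPM in the FOXA2H-KO libraries. FOXA2f/f replicate 2 was again the highest, and FOXA2f/f replicate 4 lay within the FOXA2H-KO range. The log2 difference was −0.56 ± 0.30 (SE, edgeR adjusted p = 0.952, exact permutation p = 0.2) and −0.16 without FOXA2f/f replicate 2. The genes nearest to it were Zadh2, Hells and Xpot, with root mean square differences of 0.05, 0.06 and 0.07 against 0.41 for Fth1 about its own mean. Xpot, which exports transfer RNA from the nucleus, stood at 108, 184 and 89.5 CPM in FOXA2f/f and at 93.3, 100.3 and 89.3 CPM in FOXA2H-KO.

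Ftl1, the ferritin light chain, was also highest in FOXA2f/f replicate 2, but only by little, whereas Fth1 stood far above its other libraries there. It was at 1340, 1557 and 1519 CPM in FOXA2f/f and at 1551, 1364 and 1310 CPM in FOXA2H-KO, and the groups overlapped almost fully. The log2 difference was −0.06 ± 0.19 (SE, edgeR adjusted p = 0.993). The ratio of Fth1 to Ftl1, per length, was 4.74 in FOXA2f/f replicate 2 and between 2.11 and 3.12 in the other 5 libraries. Ftl1 counts are uncertain, since 90.6% of the 50-base words of its transcript are also in other genes, 17 in all, led by the pseudogene Ftl1-ps1 with 73.4%. For Fth1 that share was 4.01%.

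Slc40a1, the iron exporter ferroportin, was the only iron handling gene with a fitted level higher in FOXA2H-KO under TMM scaling. It was at 206, 119 and 249.7 CPM in FOXA2f/f and at 271, 225 and 209.8 CPM in FOXA2H-KO. The lowest library was FOXA2f/f replicate 2, which was highest in Tfrc and Fth1, and the other libraries of both groups overlapped. The log2 difference was 0.30 ± 0.27 (SE, edgeR adjusted p = 0.983, exact permutation p = 0.4) and 0.05 without FOXA2f/f replicate 2. Ferroportin is also expressed by macrophages. The 10 macrophage markers, of which 8 had the higher mean in FOXA2H-KO, summed to 1168, 543 and 2461 CPM in FOXA2f/f and to 1750, 1735 and 1205 CPM in FOXA2H-KO, lowest in the same library as Slc40a1. Their part in the Slc40a1 level was not tested.

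**Figure D3:**
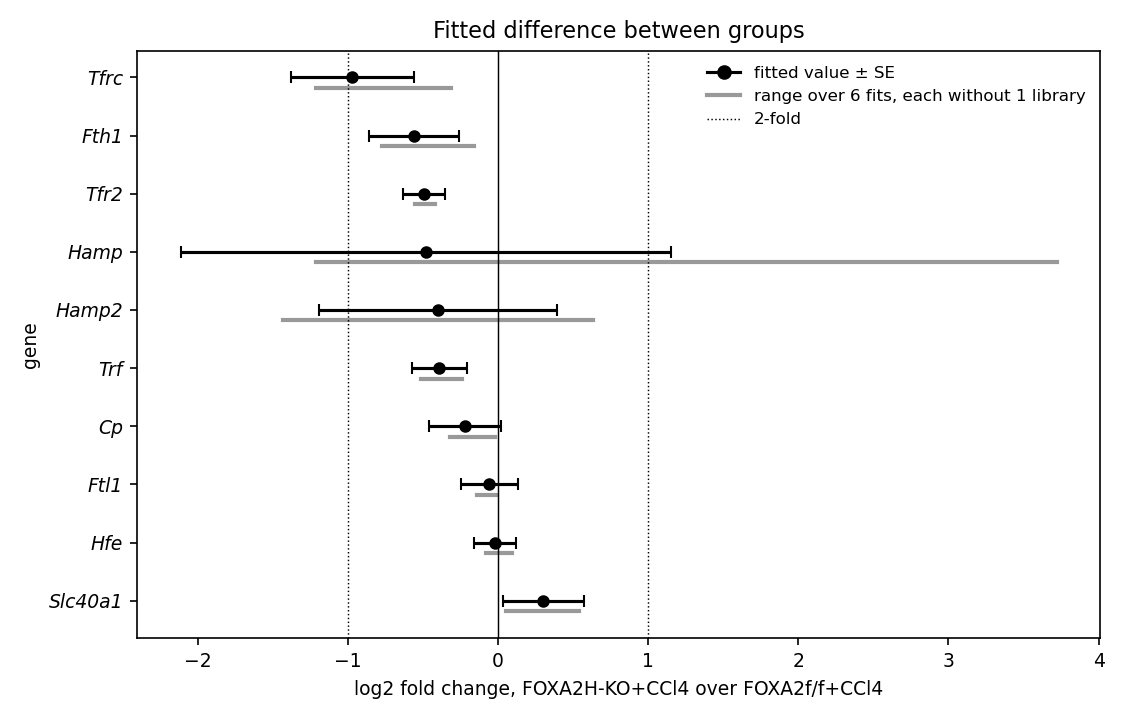
Fitted log2 fold change of FOXA2H-KO+CCl4 over FOXA2f/f+CCl4 (x axis) for each iron handling gene (y axis). Points with bars give the value ± SE (n = 3 per group), grey lines the range over 6 fits that each left out 1 library, and dotted lines a 2-fold difference. The range of Hamp runs from −1.21 to 3.72, and that of Tfr2 from −0.55 to −0.42.

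Per length, the genes kept the same order of means in both groups. Mean FPKM in FOXA2f/f was 1653 ± 534 for Fth1, 701 ± 1139 for Hamp, 502 ± 85.4 for Ftl1, 210.4 ± 39.0 for Cp and 36.1 ± 3.19 for Tfr2 (SD, n = 3). It was 17.6 ± 8.09 for Slc40a1, 11.7 ± 2.64 for Hfe, 9.50 ± 5.15 for Tfrc, 5.46 ± 0.688 for Trf and 1.45 ± 1.22 for Hamp2. The places of Trf and Ftl1 in this order are uncertain, because 79.8% and 90.6% of the 50-base words of their transcripts are also in other genes. Whether shared reads were left out of their counts was not tested, so the low place of Trf need not be its level in hepatocytes. The ranges of neighbours overlapped between Fth1 and Hamp, Hamp and Ftl1, Slc40a1 and Hfe, Hfe and Tfrc, and Tfrc and Trf, and the other neighbours were apart. In FOXA2H-KO the neighbours that overlapped were Hamp and Ftl1, Tfr2 and Slc40a1, and Tfrc and Trf. Except for Hamp, the effective lengths behind the FPKM values differ from the exonic bases of GENCODE M21. They were 866 against 3469 for Fth1 and 2826 against 1340 for Ftl1. Levels between genes, and the FPKM ratios above, thus hold for the annotation of the authors. Without length scaling, mean CPM of Fth1 and Ftl1 were 1530 and 1472 in FOXA2f/f and 1040 and 1408 in FOXA2H-KO.

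Of the 75 further iron genes tested, 4 had an unadjusted p below 0.05, beside 5.17% of all genes, and 3 of these belonged to iron transport and delivery. Of 16 genes in that list, 14 were tested and Cybrd1 and Meltf were below the filter. Their log2 fold changes were above 0 in 4 and below 0 in 10 (6 and 8 with libraries scaled by their totals), with a median of −0.20 that was −0.08 with that scaling and 0.00 in the limma fit of log2(FPKM + 0.1). None was called. Steap3, the reductase that releases iron from transferrin in endosomes, was at 25.0, 33.2 and 23.0 CPM against 20.9, 16.4 and 12.5 CPM. Every FOXA2H-KO library was lower, with a log2 difference of −0.70 ± 0.23 (SE, edgeR adjusted p = 0.807, unadjusted 0.0153, exact permutation p = 0.1). Ncoa4, the receptor that delivers ferritin to lysosomes, was at 154, 155 and 169.8 CPM against 195, 209 and 249 CPM. Every FOXA2H-KO library was higher, with a log2 difference of 0.45 ± 0.15 (SE, edgeR adjusted p = 0.815, unadjusted 0.0172, exact permutation p = 0.1). Slc11a2, the transporter DMT1 that passes iron on from the endosome and that is named here after its values were seen, was at 36.4, 46.0 and 35.1 CPM against 29.1, 30.4 and 25.1 CPM. Its log2 difference of −0.47 ± 0.15 (SE) had an edgeR p of 0.0153 and an adjusted p of 0.807. Steap2, a related reductase, had −0.48 and Scara5, a ferritin receptor, 0.29, with overlapping groups.

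Genes of iron sensing inside the cell lay close to 0. The 5 genes had a median log2 fold change of 0.08, with 3 above and 2 below 0 (4 and 1 with libraries scaled by their totals), and 0 had an unadjusted p below 0.05 in the edgeR test. Fbxl5, which degrades iron regulatory protein 2 when iron is plentiful, had −0.25, and Ireb2, which encodes that protein, −0.04. Epas1, the hypoxia-inducible factor 2α, had 0.15 and Aco1, which encodes iron regulatory protein 1, had 0.10. The ratio of Tfrc to Fth1, whose mRNAs carry the hairpin at opposite ends, ran in FPKM from 0.00424 to 0.00677 in FOXA2f/f and from 0.00328 to 0.00507 in FOXA2H-KO, and the groups overlapped (exact permutation p = 0.3).

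Among 20 genes of heme synthesis, uptake and breakdown, 5 had a log2 fold change above 0 and 15 below, with a median of −0.07. With libraries scaled by their totals alone 11 were above and 9 below, with a median of 0.04. The lowest was Hpx, which encodes the heme carrier hemopexin, at −0.45. The highest were Cpox, an enzyme of heme synthesis, at 0.39, and Hmox1, the heme oxygenase that frees iron, at 0.22. Hmox1 stood at 49.0, 24.6 and 94.5 CPM against 86.1, 64.3 and 45.4 CPM, in the same order over the libraries as the summed macrophage markers except that FOXA2H-KO replicate 4 and FOXA2f/f replicate 1 changed places. The part of macrophages in the Hmox1 level was not tested. No gene of this list had an unadjusted p below 0.05 in the edgeR test.

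Of 15 tested genes of mitochondrial iron and iron-sulfur clusters, 14 were below 0 and 1 above, with a median of −0.12. This split depended on the scaling, since 7 were below and 8 above, with a median of 0.00, when libraries were scaled by their totals alone. Over all genes that scaling moved the number below 0 from 7525 to 4657 of 14417. Ftmt, mitochondrial ferritin, had 0 counts in every library. Fdxr, the reductase that passes electrons to ferredoxin, was at 21.4, 15.9 and 16.7 CPM against 11.5, 13.6 and 11.7 CPM, with every FOXA2H-KO library lower. Its log2 difference was −0.55 ± 0.17 (SE, edgeR adjusted p = 0.791, unadjusted 0.0122, exact permutation p = 0.1). Lyrm4, which stabilises the cluster-building enzyme, had −0.56, Hscb, a chaperone for cluster transfer, had −0.03, and Isca2, an assembly factor, had 0.07, all with overlapping groups.

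Over these 5 lists together, 75 of 79 genes were tested and 0 were called in the quasi-likelihood fit, in DESeq2 and in the exact test. An unadjusted p below 0.05 was reached by 1 gene higher and 3 lower in FOXA2H-KO. The groups did not overlap in 2 genes that were higher and 6 that were lower. Over all genes tested these shares were 5.17% for the unadjusted p, 4.54% for groups apart and higher, and 5.96% for groups apart and lower. Of the 8 marker lists, the erythroid list was the one whose sums did not overlap between the groups. It summed to 50.1, 88.1 and 54.9 CPM in FOXA2f/f and to 32.4, 40.3 and 30.3 CPM in FOXA2H-KO (exact permutation p = 0.1), although 6 of its 9 genes had the higher mean in FOXA2H-KO. In all libraries but FOXA2H-KO replicate 2 most of that sum was Alas2, the erythroid enzyme that starts heme synthesis, at 35.7, 82.0 and 43.2 CPM against 26.1, 19.4 and 25.7 CPM. The neutrophil markers summed to 114, 10.9 and 75.0 CPM in FOXA2f/f and to 25.5, 30 and 18.5 CPM in FOXA2H-KO (exact permutation p = 0.4), with 5 of 7 tested genes lower at an unadjusted edgeR p below 0.05 and 0 called. The cholangiocyte markers summed to 382, 188 and 241 CPM against 719, 263 and 601 CPM (exact permutation p = 0.2). In every library most of that sum was Spp1, at 353, 164 and 222 CPM against 687, 241 and 573 CPM. The part of erythroid, neutrophil or cholangiocyte RNA in the levels of the iron handling genes was not tested.

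**Figure D4:**
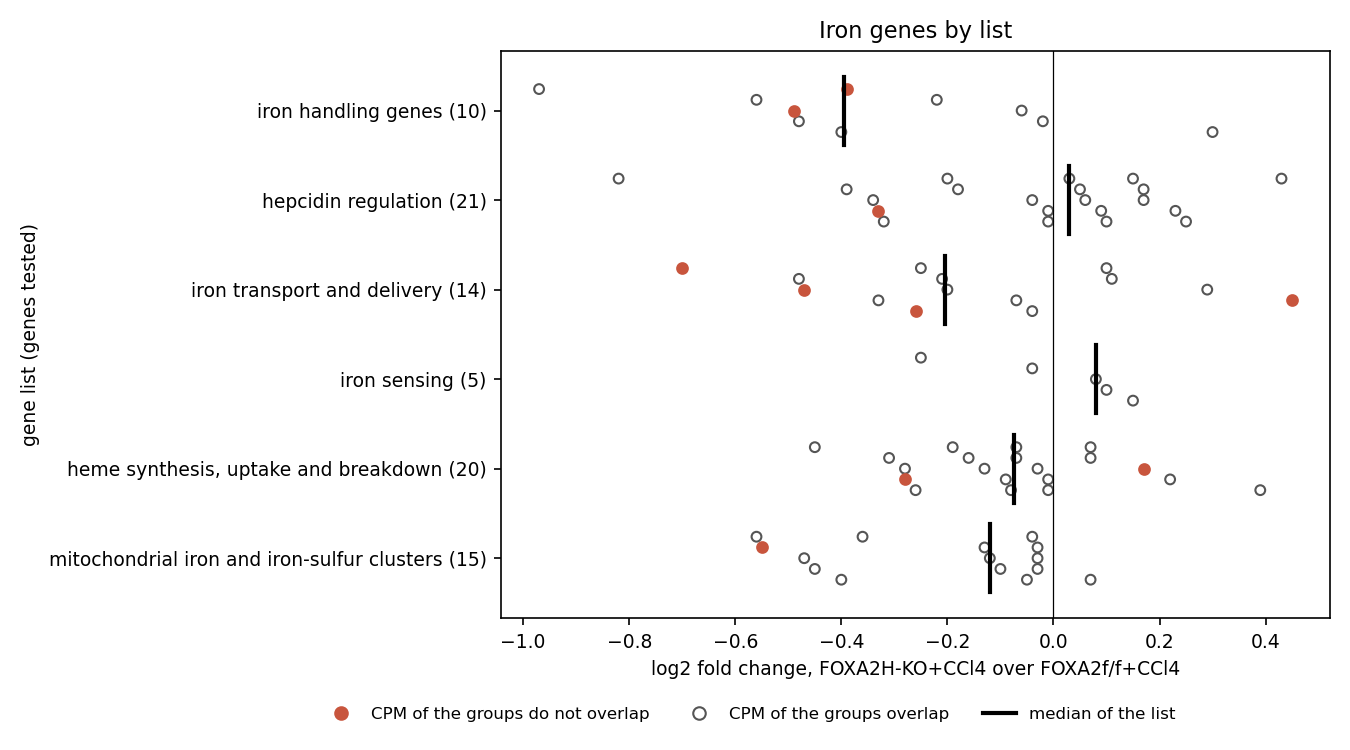
Fitted log2 fold change of FOXA2H-KO+CCl4 over FOXA2f/f+CCl4 (x axis) for each tested gene of the 10 iron handling genes and the 5 further iron lists (y axis, vertical offsets within a list carry no meaning). Filled points mark genes whose CPM do not overlap between the groups and bars the median of a list, from −0.40 for the iron handling genes to 0.08 for iron sensing.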

How the data were processed

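The authors isolated primary hepatocytes, made paired-end libraries and, per the submitters' processing notes, used CASAVA 1.8, TopHat2 2.1.0, HTSeq and edgeR with genome build mm10. The deposited files gave raw gene counts and FPKM values per library. The FPKM values followed from those counts, a fixed length per gene and the library total, with a relative spread of at most 4.4e-05 in that length over 12052 genes. The annotation, strand setting and treatment of shared reads were not given in the sources used here. A further deposited table with the authors' own comparison (fold changes and p-values) was not used.

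Counts were tested with edgeR 4.0.16 in R 4.3.3 (TMM, filterByExpr, quasi-likelihood F test, Benjamini-Hochberg over 14417 genes, no replicate block). A gene was called at an adjusted p below 0.05 and a fold of at least 2, the thresholds of the study. DESeq2 1.42.0, the edgeR exact test and limma 3.58.1 on log2(FPKM + 1) or log2(FPKM + 0.1) served as alternatives, with other scalings and filters and each library left out in turn. The fits were tested on simulated counts. Single values used the two-sided exact permutation test. Totals of 20983455 to 28327765 counts per library and a biological coefficient of variation of 25.3% set the precision.

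The genes and lists were chosen with earlier results of these data known. Named in the text were the 10 genes, Foxa2, the genes with the 2 highest and 2 lowest log2 fold changes of each further iron list, and the 3 genes nearest to each of the 3 most variable iron handling genes with a mean of at least 10 CPM (smallest root mean square difference of centred log2 CPM). Some genes that this rule names are not reported here. Hjv was found under its older symbol Hfe2, and Ahsp of the erythroid list was not matched. Samples were grouped by their titles. Equal replicate numbers were not taken to pair the samples, since the labels do not say what they mark.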

Additional observations from a re-analysis of the deposited data

How the results depend on the processing

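The iron handling genes and the 75 further iron genes had 0 calls in every setting run. Over all genes the count of 1 became 73 with DESeq2, 64 with the edgeR exact test, 2 without the filter, 254 with an unadjusted p below 0.05 and a fold of at least 2, and 0 with libraries scaled by their totals, with limma on log2(FPKM + 1) or log2(FPKM + 0.1), and with the replicate block. Leaving out each library in turn gave 0 to 6, the 6 without FOXA2f/f replicate 2. Foxa2 stayed lower in all 15 settings, but 9 of them left its adjusted p above the threshold. Over all genes tested, samples with equal replicate numbers did not deviate together (correlations of −0.07, 0.03 and −0.23, with 0 libraries closest to their own number). With 3 libraries per group this cannot show whether equal numbers share a batch. The labels do not say what the numbers mark, so the block is not read as a paired analysis. With that block the count of iron handling genes called was 0.

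The sign of the log2 fold change turned for small or highly variable values. Hamp was 0.84 and 0.85 in the limma fits, 0.58 with the replicate block, and −1.21 to 3.72 when each library was left out, above 0 without FOXA2f/f replicate 1 or FOXA2H-KO replicate 2. Hamp2 ran from −1.43 to 0.63 in the same way. With libraries scaled by their totals, Ftl1, Hfe, Ireb2 and Hscb became 0.06, 0.09, 0.10 and 0.05. In limma with pseudocount 1 they were 0.06, 0.09, 0.09 and 0.07, and with 0.1 they were 0.06, 0.10, 0.10 and 0.12. Hscb was 0.00 with the replicate block. Leaving out each library gave −0.08 to 0.09 for Hfe, −0.72 to 0.01 for Smad7, −0.18 to 0.05 for Ireb2, −0.14 to 0.82 for Hmox1, −0.10 to 0.17 for Isca2 and −0.30 to 0.30 for Hscb. In settings added after seeing the data, Atoh8 (−0.20) was 0.01 and 0.04 in the limma fits and −0.49 to 0.39 when each library was left out, and Id1 (−0.32) was −0.58 to 0.42. The cause was not tested. Tfr2, Tfrc, Trf, Fth1, Cp and Slc40a1 kept their sign in every setting run. At 3 libraries per group the exact test cannot go below 0.1, and for Hamp the spread between libraries, not depth, limits what can be read.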
